A study of Zea mays with 32 samples.

Results

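The set consists of 4 maize genes of the gibberellin pathway that are known for dwarf mutants: d8 (Zm00001d033680) and d9 (Zm00001d013465), which encode DELLA proteins, and d1 (Zm00001d039634) and d3 (Zm00001d045563), which encode enzymes of gibberellin synthesis. They are 4 of the 39510 gene identifiers in the count table, taken by a rule that lists them by identifier and states no measured value. Of the 4 members, d8 and d9 passed the filter on low counts and were tested, while d1 and d3 had too few counts and are described by their counts. The gene names come from the list that defined the set, since the count table holds identifiers alone.

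The libraries come from wild-type plantlets of the maize (Zea mays) inbred line B73 at 7 days after germination, with no treatment and no mutant. A pair of roots, A and B, was pinned side by side and cut by hand from the tip backwards into 16 slices, which gave 32 RNA-seq libraries with 1 library per root and slice (n = 2 per slice). The stated purpose was to profile mRNA in zones of root development, but the labels number the slices without assigning them to zones. Each slice holds every cell type of the root at that position, so a change in the share of a cell type and a change in RNA per cell cannot be told apart.

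Gibberellins are hormones that promote the elongation and division of plant cells. Their synthesis runs from ent-kaurene through ent-kaurenoic acid, which is oxidised by the cytochrome P450 enzyme that d3 encodes, to the active hormone, which is formed by the GA 3-oxidase that d1 encodes. DELLA proteins are nuclear repressors of growth of the GRAS family, and a receptor that has bound gibberellin marks them for degradation. The amount of a DELLA protein is therefore set in part after transcription, and the values here are of RNA. Loss of d1 or d3 gives dwarf plants that lack the active hormone, whereas the dwarf alleles of d8 and d9 are dominant and leave the DELLA protein insensitive to it. In roots, gibberellin acts on the cells that leave the dividing region and elongate.

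The library totals ran from 1008082 to 5681180 counts, with a median of 1860465. Slice 8 of root A stood apart, with counts for 8303 genes against 13804 to 22414 in the other libraries, and the correlation of log2 CPM between the roots was 0.58 in slice 8. It was 0.73 in slice 1, 0.98 in slice 7, whose libraries were closest to each other, and 0.83 to 0.93 in the other slices. Levels are given in CPM, counts per 1000000 counts after TMM scaling, and levels of different genes cannot be compared per length because gene lengths were not used here. The markers of root tissues were not checked, since the identifiers carry no names.

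Both DELLA genes were low in slices 3 to 8 and rose several-fold to slices 9 and 10. From slice 9 on every library of d9 stayed above those of slices 3 to 8, whereas d8 was lower again in slices 11, 12, 15 and 16, at slice means of 10.5 to 12.1 CPM, and some of its libraries there overlapped slices 3 to 8. Both genes were also higher in slices 1 and 2 than in slices 3 and 4. The level of d9 in slice 1 was close to its highest along the root. d1 was close to the limit of detection and had 26 of its 29 counts in slices 5 to 12, and d3 had 1 count in all 32 libraries.

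The first DELLA gene, d8, had 1011 counts in all. In slices 1 and 2 its level was 14.6 and 12.1 CPM in root A and 16.4 and 22.7 CPM in root B. In slices 3 to 7 it was 4.05, 5.85, 8.50, 7.03 and 6.93 CPM in root A and 2.84, 5.82, 3.24, 4.00 and 8.34 CPM in root B, so that every one of these 10 libraries lay below every library of slices 1 and 2. In slice 8, root A had no count of d8, and root B had 6.61 CPM. A count of 0 in that library allows up to 3.60 CPM as a limit of 3 counts, and the two-sided Poisson interval used to compare the roots reaches 4.43 CPM. The level then rose steeply in both roots, to 40.1 and 51.3 CPM in slices 9 and 10 of root A and to 21.1 and 22.5 CPM in the same slices of root B. In slices 11 and 12 it was 10.4 and 7.41 CPM in root A and 13.5 and 16.7 CPM in root B, below slices 9 and 10 in each root. A further high value of 49.0 CPM stood in slice 13 of root B, where root A had 15.2 CPM. In slices 14 to 16 the levels were 17.7, 14.6 and 10.2 CPM in root A and 16.7, 6.44 and 13.4 CPM in root B.

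The second DELLA gene, d9, had 1312 counts in all. Its levels in slices 1 and 2 were 31.4 and 17.3 CPM in root A and 49.3 and 23.4 CPM in root B. In slices 3 to 7 they were 2.70, 5.85, 3.50, 5.41 and 7.34 CPM in root A and 1.42, 0.529, 2.78, 1.5 and 5.44 CPM in root B. Slice 8 again had no count in root A, with the same limits, and 7.94 CPM in root B. From slice 9 on every library was above all 12 libraries of slices 3 to 8. Levels in slices 9 to 12 were 26.8, 34.2, 17.5 and 24.0 CPM in root A and 26.9, 21.3, 28.1 and 28.2 CPM in root B. From slice 9 on they were highest in slice 13, with 38.9 CPM in root A and 47.4 CPM in root B, and the roots lay closer together there than for d8. In slices 14 to 16 they were 28.1, 22.2 and 17.8 CPM in root A and 18.8, 18.3 and 13.7 CPM in root B, with each root at its lowest level from slice 13 on in slice 16.

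**Figure D1:**
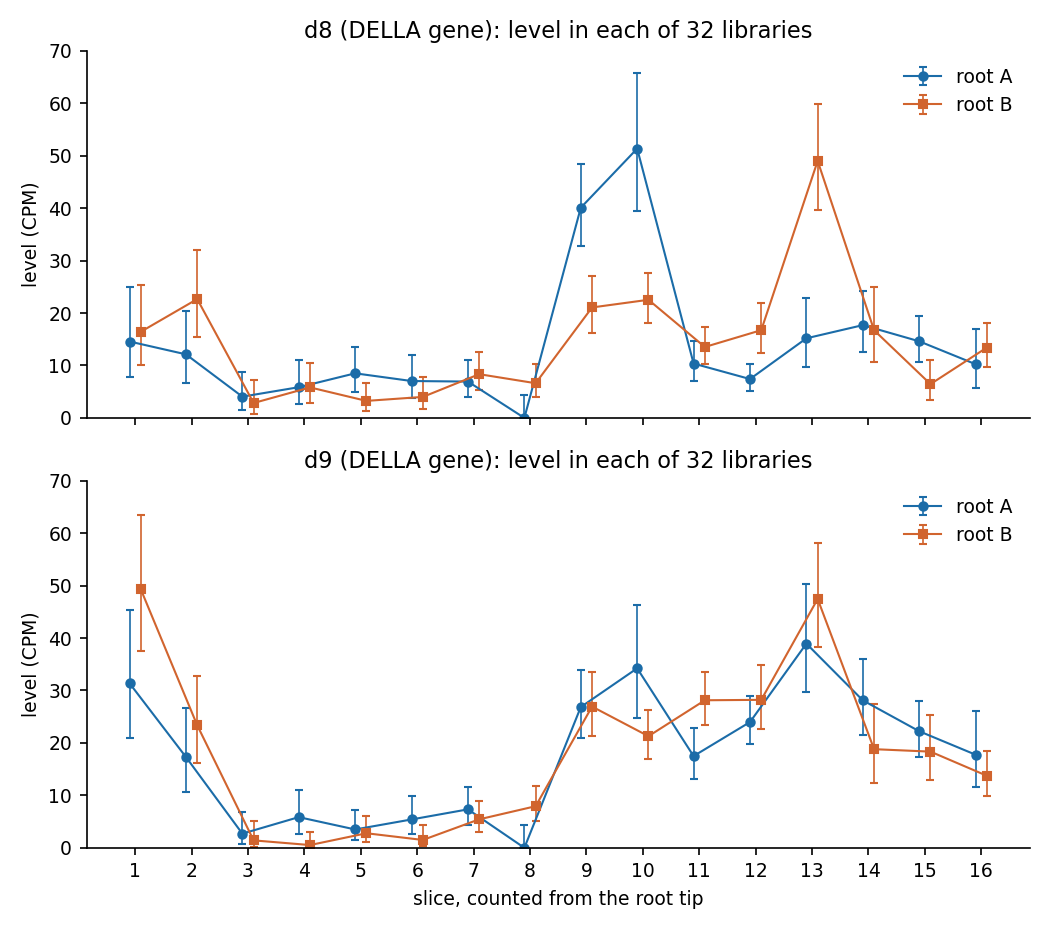
Level of d8 (upper panel) and d9 (lower panel) in CPM against slice number, counted from the root tip, for root A (blue circles) and root B (orange squares), with exact Poisson 95% intervals that cover counting error only. In slices 3 to 8 d8 lies at 0 to 8.50 CPM and d9 at 0 to 7.94 CPM, and in slices 9 to 16 d8 lies at 6.44 to 51.3 CPM and d9 at 13.7 to 47.4 CPM.

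Ordered by slice mean, d8 was highest in slice 10 (36.9 ± 20.4 CPM, SD, n = 2), slice 13 (32.1 ± 23.9 CPM) and slice 9 (30.6 ± 13.4 CPM), and lowest in slice 8 (3.31 ± 4.68 CPM) and slice 3 (3.45 ± 0.857 CPM). Of the 15 pairs of neighbours in this order, 14 had overlapping values in the 2 roots, and the exception was slice 14 over slice 1. For d9 the highest slices were 13 (43.2 ± 6.02 CPM), 1 (40.3 ± 12.7 CPM) and 10 (27.8 ± 9.15 CPM), and the lowest was slice 3 (2.06 ± 0.907 CPM). Neighbours in the order of d9 overlapped in 12 of 15 pairs, with slice 15 over 16, slice 16 over 7 and slice 5 over 3 as the exceptions. The order of single slices was therefore mostly not resolved with n = 2. The roots differed beyond counting error in slices 9, 10, 12 and 13 for d8 and in slices 8 and 11 for d9, as judged by Poisson intervals that did not overlap. The d9 difference in slice 8 and the last place of slice 8 for d8 rest on the root A library. That library had no count of either gene and counts for only 8303 genes.

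Whether the level of a gene varied between the 16 slices was tested with edgeR's quasi-likelihood test, and p-values were adjusted by Benjamini-Hochberg over the 19587 genes that passed the filter. Both DELLA genes varied, d8 with an adjusted p of 0.00400 and d9 with an adjusted p of 3.25e-05 in edgeR. The span from the lowest to the highest fitted slice was 3.05 log2 units for d8 and 3.89 for d9. Variation between slices was the rule in this table, since 60.9% of all tested genes passed the same test. Leaving out slice 8 of root B, so that slice 8 had no count of either gene, widened the spans to 5.31 for d8 and 5.60 for d9, and leaving out slice 4 of root A widened that of d9 to 4.96.

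The rise in the middle of the root was the clearest change of both genes. The d8 level was 5.58 ± 2.93 CPM in slices 5 to 8 and 22.9 ± 15.3 CPM in slices 9 to 12 (SD, n = 8 each), with a median of 6.77 (0 to 8.50) against 18.9 (7.41 to 51.3) CPM. The libraries overlapped through slice 12 of root A, which was below the highest library of slices 5 to 8. The d9 level was 4.24 ± 2.78 CPM in slices 5 to 8 and 25.9 ± 5.03 CPM in slices 9 to 12, with a median of 4.46 (0 to 7.94) against 26.9 (17.5 to 34.2) CPM and no overlap. The fitted log2 change was 1.75 ± 0.40 (SE) for d8, a 3.37-fold rise, with an adjusted p of 0.000575 in edgeR's quasi-likelihood test. For d9 it was 2.52 ± 0.38, a 5.75-fold rise, with an adjusted p of 2.47e-06 in the same edgeR test. Of all tested genes 22.0% were called higher in slices 9 to 12 than in slices 5 to 8. The rise was seen in each root: computed from the levels of single roots, root A and root B gave log2 changes of 2.14 and 1.63 for d8 and of 2.77 and 2.51 for d9. Without slice 8 the changes were 1.65 for d8 (adjusted p = 0.00206) and 2.64 for d9 (adjusted p = 6.33e-06) in edgeR, a comparison added after the data were seen. The levels of single roots then gave 1.34 in root A and 1.73 in root B for d8, and 2.08 and 2.81 for d9. Root A thus showed the larger change only with slice 8, where it had no count of either gene. Leaving out the library of slice 8 of root B alone raised the fitted changes to 3.34 and 4.18, since slice 8 then had no count of either gene.

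The position of the rise was examined by setting 2 slices against the 2 before them, over 13 boundaries with 4 libraries a side, a comparison also added after the data were seen. For each DELLA gene 2 of the 13 boundaries were called. One of them was slices 9 and 10 against slices 7 and 8, where d8 ran from 21.1 to 51.3 CPM against 0 to 8.34 CPM and d9 from 21.3 to 34.2 CPM against 0 to 7.94 CPM, with no overlap for either gene. The log2 change was 2.44 ± 0.55 for d8 (5.42-fold, adjusted p = 0.00413) and 2.16 ± 0.52 for d9 (4.48-fold, adjusted p = 0.00636) in edgeR's quasi-likelihood test. Of all tested genes, 5.68% were called higher at this boundary. The d9 call was lost without slice 7 of root B (adjusted p = 0.0553 in edgeR), and without slice 8 of root B the changes were 5.61 for d8 and 5.47 for d9. Between single neighbouring slices, with 2 libraries a side, edgeR called 0 of 15 steps for d8 (4 at an unadjusted p under 0.05) and 0 of 15 for d9 (2 at an unadjusted p under 0.05), against 1.17% of all gene-by-step tests. The step with the lowest adjusted p for both genes was slice 9 against slice 8, at 0.0652 for d8 and 0.0949 for d9 in edgeR, and DESeq2 called it for both. Slice 9 against slice 7 gave log2 changes of 1.99 for d8 (adjusted p = 0.186) and 2.07 for d9 (adjusted p = 0.145) in edgeR.

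The other boundary called for both genes lay near the tip, where the levels fell from slices 1 and 2 to slices 3 and 4. The d9 level was 17.3 to 49.3 CPM in slices 1 and 2 and 0.529 to 5.85 CPM in slices 3 and 4, and its log2 change was -3.51 ± 0.65 (11.4-fold lower), with an adjusted p of 0.000234 in edgeR's quasi-likelihood test. Computed from the levels of single roots root A and root B gave d9 changes of -2.30 and -4.26, and the fitted change was -4.69 when slice 4 of root A was left out. The d8 level was 12.1 to 22.7 CPM against 2.84 to 5.85 CPM, and its log2 change was -1.87 ± 0.67 (3.65-fold lower), with an adjusted p of 0.0465 in edgeR (-1.29 in root A and -2.01 in root B). The libraries of the 2 sides did not overlap for either gene, and 9.09% of all tested genes were called lower at this boundary. The d8 call stood close to the threshold: it was lost in 24 of 32 fits that left out 1 library, with adjusted p-values of 0.0314 to 0.202 over the 32, and in 4 of 10 other settings. Those 10 settings include d8 and d9 summed as 1 gene (-2.71), which kept the call. In the fitted comparison of slice 1 with slices 2 to 4, d9 was 8.00-fold higher (log2 change 3.00 ± 0.61, adjusted p = 0.000317 in edgeR). Its levels were 31.4 and 49.3 CPM against 0.529 to 23.4 CPM, without overlap, with means of 40.3 and 8.53 CPM. Root A and root B gave log2 changes of 2.08 and 3.54, and the fitted value was 3.79 without slice 4 of root A. Against slice 2 alone slice 1 did not pass the test for d9, since slice 2 was 1.99-fold lower than slice 1 (log2 change -0.99, adjusted p = 0.363 in edgeR). For d8 the log2 change of slice 1 against slices 2 to 4 was 1.13 ± 0.73 (adjusted p = 0.261 in edgeR). Its libraries of slice 1, at 14.6 and 16.4 CPM, lay within the range of slices 2 to 4. Among all tested genes 15.1% were called higher in slice 1. Whether d9 and d8 differed from each other in these changes at the tip was not tested.

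**Figure D2:**
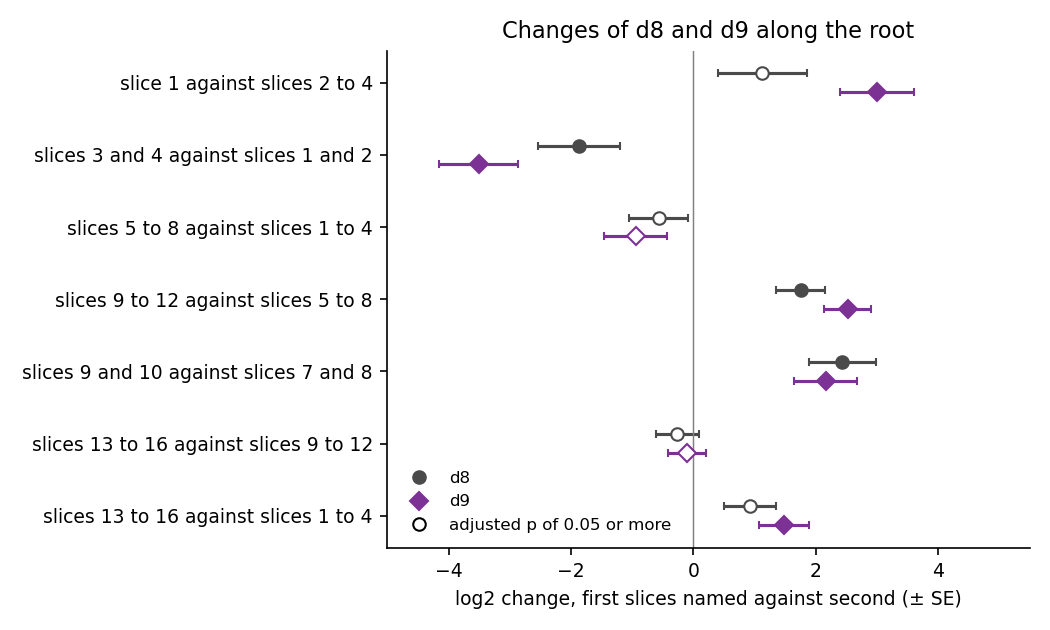
Log2 change (± SE) of d8 (grey circles) and d9 (purple diamonds) for 7 comparisons of slices, first slices named against second, from edgeR's quasi-likelihood fit, with open symbols where the adjusted p was 0.05 or more. Both genes lie above 0 in slices 9 to 12 against slices 5 to 8 (1.75 and 2.52) and below 0 in slices 3 and 4 against slices 1 and 2 (-1.87 and -3.51).

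Between the ends of the sampled root, slices 13 to 16 against slices 1 to 4, the level of d9 was 25.7 ± 11.8 CPM against 16.5 ± 17.4 CPM (SD, n = 8 each), with a median of 20.5 (13.7 to 47.4) against 11.6 (0.529 to 49.3) CPM. The 2 groups overlapped because slices 1 and 2 were high. The fitted log2 change of d9 was 1.48 ± 0.41 (2.79-fold, adjusted p = 0.00288 in edgeR). It was 1.25 to 2.08 when 1 library was left out, highest without slice 4 of root A, and with the 4 slices of a block fitted as one group it was 0.70 (adjusted p = 0.215 in edgeR). The level of d8 was 17.9 ± 13.1 CPM against 10.5 ± 7.03 CPM, with a median of 14.9 (6.44 to 49.0) against 8.99 (2.84 to 22.7) CPM. Its log2 change of 0.93 ± 0.42 did not pass the test (adjusted p = 0.0687 in edgeR), although it passed without slice 8 of root B (0.95, adjusted p = 0.0433), without slice 13 of root A (1.09, adjusted p = 0.0385) and without slice 15 of root B (1.05, adjusted p = 0.0477). The outcome for d8 stayed as in the main fit in 29 of the 32 fits that left out 1 library. With library totals alone its log2 change was 0.54, not called. Of all tested genes 27.9% were called higher in slices 13 to 16. Slice 1 weighed on both values: with slices 2 to 4 in place of slices 1 to 4, the log2 change was 2.23 for d9 (adjusted p = 0.000149) and 1.21 for d8 (adjusted p = 0.0297) in edgeR.

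The remaining comparisons of blocks did not pass the test for either gene. From slices 1 to 4 to slices 5 to 8 the log2 change was -0.57 ± 0.48 for d8 (adjusted p = 0.569) and -0.94 ± 0.52 for d9 (adjusted p = 0.297) in edgeR, while 9.74% of all tested genes were called in either direction. Without slice 8 of root B the changes were -2.15 for d8 (adjusted p = 0.184) and -2.58 for d9 (adjusted p = 0.0556) in edgeR, and without slice 4 of root A the d9 change was -0.33. From slices 9 to 12 to slices 13 to 16 it was -0.26 ± 0.35 for d8 (adjusted p = 0.696) and -0.10 ± 0.31 for d9 (adjusted p = 0.918) in edgeR, against 19.6% of all tested genes called. Root B against root A at matched slices gave 0.04 ± 0.28 for d8 (adjusted p = 0.964) and -0.04 ± 0.25 for d9 (adjusted p = 0.954) in edgeR, with 10.0% of all genes called. Each side of that comparison is 1 root, whose slices stand in as replicates, so its p-values compare these roots only. When the change between the ends (slices 13 to 16 against slices 1 to 4) was compared between root B and root A, the difference was 0.13 ± 0.97 for d8 (adjusted p = 1.000) and -0.55 ± 0.99 for d9 (adjusted p = 0.995) in edgeR, where 0.0306% of all genes were called. The errors of this last comparison leave room for differences of more than 1 log2 unit, and here too each side is a single root.

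The calls of d9 and d8 between blocks were set against all genes under other scalings too. In slices 13 to 16 against slices 1 to 4, the median change of all genes was 0.01 with TMM, -0.21 with DESeq2 size factors and -0.37 with library totals, with 5464 genes called higher and 3992 lower, 4809 and 4877, and 4261 and 5327 in that order. The change of d9 was 1.25 and 1.09 under the latter pair of scalings and stayed called. That of d8 was 0.70 (adjusted p = 0.171) and 0.54 (adjusted p = 0.326) in edgeR under the same scalings, not called. In the same order, genes called higher and lower in slices 5 to 8 against slices 1 to 4 numbered 1258 and 649, 751 and 995, and 1003 and 641. In slices 13 to 16 against slices 9 to 12 they numbered 2351 and 1489, 3067 and 1027, and 1953 and 1799, and the change of d9 there turned to 0.094 with DESeq2 size factors. In slices 9 to 12 against slices 5 to 8, the TMM split of 4304 and 4133 became 3365 and 4899 with library totals, where d8 was at 1.52 and d9 at 2.29, both called. In slice 1 against slices 2 to 4, the TMM split of 2955 and 2446 became 2196 and 2886 with library totals, where d9 was at 2.71 and stayed called.

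The balance of the DELLA genes was described by the share of d8 in the counts of both, which within a library does not depend on library size. The shares given here were pooled over libraries, so libraries with more counts of the pair weigh more. The pooled share was 43.5% over all libraries, 27.3% in slice 1 (Wilson 95% interval 20.1 to 35.8%), 52.4% in slices 2 to 4, 55.9% in slices 5 to 8 (48.7 to 62.8%), 43.3% in slices 9 to 12 (40.4 to 46.1%) and 41.7% in slices 13 to 16 (38.1 to 45.3%). Within slices 9 to 12 it was 53.7% in slices 9 and 10 (49.7 to 57.6%). The intervals cover counting error only. Because d8 and d9 are close relatives, reads common to both may have been divided between them by estimation, so the share is less certain than the sum of the pair. d9 was the higher of the pair, in CPM not corrected for length, in both libraries of slice 1 and in 7 of 8 libraries of slices 13 to 16. The within-library log2 ratio of d8 to d9 averaged -0.60 in slices 13 to 16 and 0.03 in slices 1 to 4, a difference of -0.63 with an exact two-sided permutation p of 0.185 over 12870 arrangements. Without slice 1, the slice where the share of d8 was lowest, the difference was -1.08 (exact permutation p = 0.00999). That was the only setting of the ratio with a permutation p below 0.05, so the outcome of this test depended on slice 1. The value is given as a description because the choice of slice follows the outcome. With slice 1 kept, the difference had the same sign in root A alone (-0.55, exact permutation p = 0.200) and in root B alone (-0.72, exact permutation p = 0.486), where 4 slices against 4 allow no p below 0.0286.

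**Figure D3:**
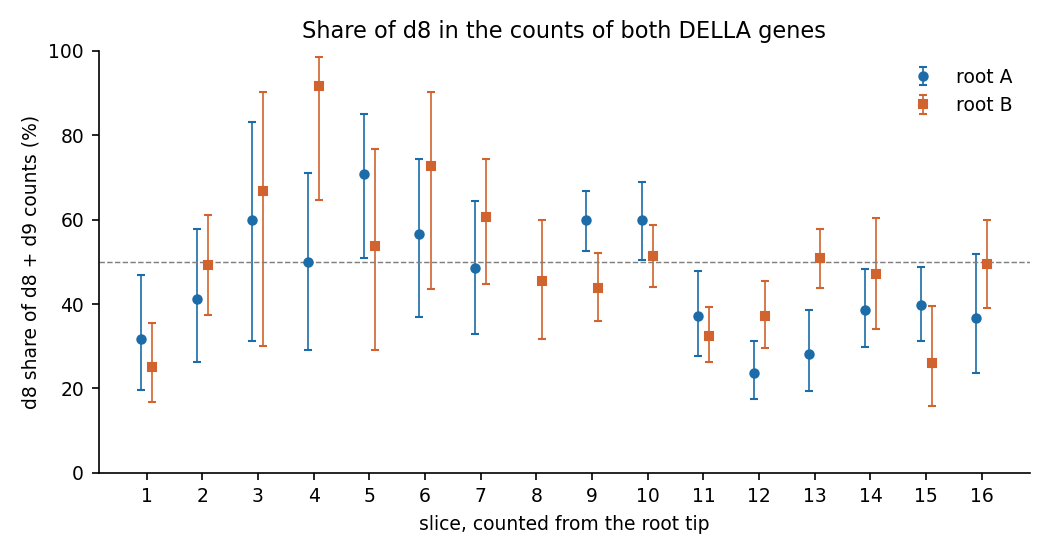
Share of d8 in the summed counts of d8 and d9 (%) against slice number for root A (blue circles) and root B (orange squares), with Wilson 95% intervals and a dashed line at 50%; slice 8 of root A had no count of either gene. Pooled over both roots the share is 27.3% in slice 1, 55.9% in slices 5 to 8 and 41.7% in slices 13 to 16.

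The profiles of the DELLA genes along the root were alike in both roots. Over the 16 slices the Pearson correlation of log2 CPM between d8 and d9 was 0.87 for root A and 0.85 for root B. Likeness was taken as the lower of the 2 correlations. Among the 11960 genes whose mean reached 10 CPM, d9 ranked 5 in likeness to d8 and d8 ranked 49 in likeness to d9. The median likeness of all these genes was -0.08 to d8 and -0.07 to d9. The gene most like d8 was Zm00001d048503 (0.90 in root A and 0.88 in root B), and the gene most like d9 was Zm00001d023468 (0.92 and 0.93). Neither identifier has a name in the sources used here. The points of these correlations share their libraries, their depth and the slice 8 library that stands apart, and d8 and d9 may also share reads, so the values are descriptions. Without slice 8 the likeness of d8 and d9 was 0.74, and they ranked 15 and 440 for each other.

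d1, the gene of the last step to active gibberellin, had 29 counts, which lay in 12 of 32 libraries. In slice 7 it had 4 counts in root A and 6 in root B, where the highest level, 2.17 CPM, was reached. In slice 6 it had 2 counts in root A and 1 in root B, and in slices 9 and 10 it had 3 and 1 in root A and 1 and 3 in root B. The other libraries with counts were slice 11 of root A with 3, slices 2 and 12 of root B with 2 each, and slice 13 of root A with 1. Pooled over both roots, slices 1 to 4 had 0.182 CPM (exact Poisson 95% interval 0.0220 to 0.657) and slices 5 to 8 had 0.761 CPM (0.405 to 1.30). Slices 9 to 12 had 0.498 CPM (0.265 to 0.851) and slices 13 to 16 had 0.0593 CPM (0.00150 to 0.331). Slices 5 to 12 thus held 26 of the 29 counts, a share of 89.7% (exact 95% interval 72.6 to 97.8%), with 60.0% of the sequencing depth. Slice 7 alone held 10 of 29, or 34.5% (17.9 to 54.3%), with 6.71% of the depth. The grouping of slices 5 to 12 was made after the counts were seen, so these shares are a description with no test. The slices with counts of d1 included low slices (6 and 7) and high slices (9 and 10) of both DELLA genes. They also included slices 11 and 12, where d9 was high and d8 was lower again. With the filter on low counts removed, edgeR's quasi-likelihood test gave d1 an adjusted p of 0.958 for variation between slices and of 0.368 for slices 13 to 16 against slices 9 to 12, the lowest among the blocks.

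d3, the gene of the earlier oxidation step, had 1 count in the 72642582 counts of all libraries, in slice 3 of root B (0.710 CPM). The level pooled over all libraries was 0.0141 CPM, with an exact Poisson 95% interval of 0.000356 to 0.0784 CPM. In slices 9 to 16 it had 0 counts, with a limit of 0.0698 CPM from 3 counts over those slices and an exact Poisson interval up to 0.0858 CPM. Differences of d3 along the root were not detectable at this depth, and d1 and d3 could not be set against each other because their ratio would rest on that single count.

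**Figure D4:**
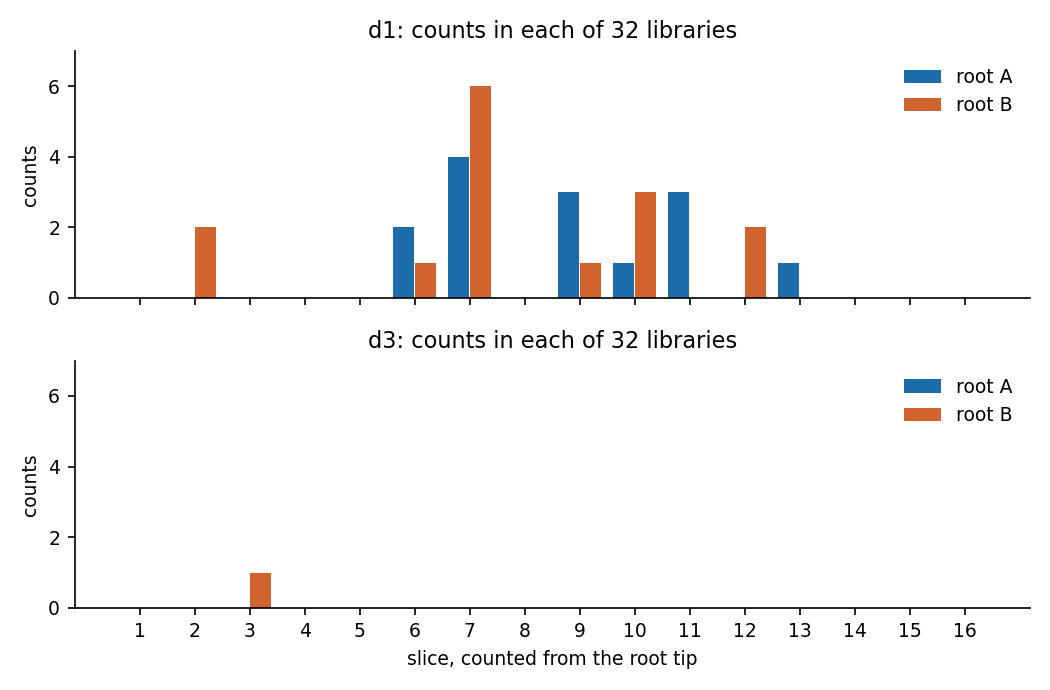
Counts of d1 (upper panel) and d3 (lower panel) against slice number, counted from the root tip, for root A (blue bars) and root B (orange bars). d1 reaches 6 counts, in slice 7 of root B, and d3 has 1 count, in slice 3 of root B.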

How the data were processed

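Total RNA was measured by RNA-seq in 32 libraries, 16 slices of each of 2 maize roots, and the labels give the slice and root of each library. The deposited table holds whole-number counts per gene identifier. Per the submitters' processing notes, the authors used Trimmomatic, kallisto 0.43 and DESeq2; the notes give no roles or order. Build, annotation, strandedness and any rounding of estimated values are not given in the sources consulted. Should these be kallisto values, reads common to close relatives such as d8 and d9 were divided between them by estimation. Per the labels, the libraries were made with a kit that amplifies cDNA, and no molecular identifiers are mentioned, so intervals and floors cover counting error only. The table has 0 columns without a sample. None of its identifiers (0 of 39510, 0 of the 4 members) matched a RefSeq gene table (assembly Zm-B73-REFERENCE-NAM-5.0, 49888 genes).

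The counts were fitted with edgeR 4.0.16 in R 4.3.3 on the whole table: scaling was by TMM, filterByExpr with slices as groups (counts of at least 10, totals of at least 15) kept 19587 genes, and the quasi-likelihood test (robust, newer dispersion step) had 16 slice groups and no block. Contrasts compare means of slice coefficients. P-values were adjusted by Benjamini-Hochberg over all tested genes and called below 0.05. Standard errors are the absolute log2 change divided by the square root of F. The roots were compared in a model of slice and root, and their difference in change in a model with 8 groups, each a block of 4 slices of 1 root, whose slices stand in as replicates. Log2 CPM used a prior count of 2. Intervals are 95%, exact Poisson for levels and Wilson or exact binomial for shares; a count of 0 allows up to 3 counts. Scipy 1.17.1 gave the exact intervals. The steps were tested on simulated data.

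Per the labels a letter marks 1 root, which pairs the libraries. Across genes, deviations from the slice mean correlated between slices of the same root with a median r of 0.143 (-0.02 to 0.376, 120 slice pairs, 85 over 0.1). The roots were pinned and cut together, and slices of a root are not independent. In the model with slices as groups, p-values measure the spread between these 2 roots. The comparisons of the roots, the blocks of 4 slices as groups and the permutation test of the ratio take different slices as replicates. Permutation within 1 root holds no spread between roots. The genes named are the 4 members and, for each tested member, the gene with the highest likeness. The members and comparisons were chosen with earlier results of these data known. The alternatives were scaling, filters, DESeq2 1.42.0, the older dispersion step, the root as a block, leaving out each library, grouping, summing d8 and d9, and the prior count.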

Additional observations from a re-analysis of the deposited data

How the results depend on the processing

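Of the tests of d8 and d9 between slices, 162 of 174 kept their direction and their side of the threshold under the settings other than leaving out 1 library, and 484 of 512 did so when 1 library was left out. The 174 include the fit of d8 and d9 summed as 1 gene, which is entered under each of the names. The rise from slices 5 to 8 to slices 9 to 12 kept its call throughout, from 1.52 to 3.34 for d8 and from 2.19 to 4.18 for d9 (log2 change). The 2.19 is the value of the summed gene, not of d9 alone, which was at 2.29 with library totals. With the root as a replicate block, which pairs libraries of the same root, no call of d8 or d9 changed: slices 13 to 16 against slices 1 to 4 gave 0.93 (adjusted p = 0.0653 in edgeR) for d8 and 1.48 (adjusted p = 0.00250) for d9, and the log2 ratio of d8 to d9 stayed at -0.63 with an exact permutation p of 0.181. For slices 13 to 16 against slices 1 to 4, the sum of d8 and d9 as 1 gene gave 1.16, called, and d8 gave 1.21 when slice 1 was left out of the first block, called, and 0.66 to 1.09 when 1 library was left out; d9 gave 0.70 with blocks of 4 slices as groups, not called. Summing both genes gave 2.18 for slice 1 against slices 2 to 4, called. For slices 5 to 8 against slices 1 to 4, d9 was called by DESeq2 (-1.25) and with blocks as groups (-1.76). For slices 13 to 16 against slices 9 to 12, the sign of d9 turned with DESeq2 size factors (0.094) and DESeq2 (0.086), neither called. The log2 ratio of d8 to d9 was -1.08 with slice 1, its extreme slice, left out, and ran from -0.86 to -0.32 when 1 library was left out. The sign of differences between the roots, none of them called, also turned: for d8 without slices 1, 8 and 12 of root A (-0.16) and for the sum of both genes (-0.022), with d8 at -0.11 to 0.17 when 1 library was left out; for d9 with library totals alone (0.067), with -0.12 to 0.023 when 1 library was left out; and for the change from front to back (-0.20 and -0.26 in the same settings as d8), with -0.68 to 0.66 for d8 and -1.24 to 0.60 for d9 when 1 library was left out. The causes were not tested. Over 10 other settings, single steps called numbered at most 1 for d8 and 2 for d9, the latter with DESeq2.

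Counts of all genes called moved by over 1.5 times for variation between slices from 11934 to 7398 with a mean of at least 10 CPM, slices 5 to 8 against 1 to 4 from 1907 to 3183 without slice 8 of root B, slices 13 to 16 against 9 to 12 from 3840 to 2541 with the older dispersion step, slice 1 against 2 to 4 from 5401 to 2668 without slice 1 of root A, slices 3 and 4 against 1 and 2 from 3686 to 2124 without slice 2 of root B, and slices 9 and 10 against 7 and 8 from 1792 to 1084 with the older step, 734 with slice 7 as 1 library, and 663 to 4859 (without slice 7 of root B and slice 8 of root B) when 1 library was left out. For root B against root A it was 1964, 1113 with the mean of 10 CPM and 952 with the older step, and for the difference in change it was 6, 58 without a filter, 3 with the older step, and 14 and 13 without slice 8 or slice 3 of root A. The likeness of d8 and d9 was 0.82 by Spearman, 0.84 with a prior count of 0.5 and 0.74 without slice 8. The planned ratio of d1 to d3 was not run, because d3 had 1 count. Few counts in slices 3 to 8 limit the values there.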

Other observations

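The genes whose profiles were most like those of the DELLA genes have no name in the sources used here. With Spearman's correlation and without slice 8, Zm00001d048503 was again the gene most like d8 (0.88 and 0.79), and with a prior count of 0.5 it ranked 2. Zm00001d023468 was most like d9 with a prior count of 0.5 (0.93), but ranked 43 by Spearman's correlation and 19 without slice 8, where Zm00001d013849 took its place in both settings.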
